A study of Mus musculus with 6 samples.

Results

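The potassium channel genes considered here are all genes whose symbol on the array starts with Kcn, apart from the antisense transcript Kcnq1ot1, whose symbol shares the prefix. They were chosen by name and not by signal, although earlier results of these data were known. The rule found 90 genes, read by 803 probe sets, among 23152 genes and 269751 probe sets in all. Another 5 probe sets carry a Kcn symbol together with a second gene's symbol and were left out. Arrays read total RNA of mouse neural stem cells that had been taken from embryonic cortex at day 14.5 and grown in culture. Each of 3 cell lines, numbered 2, 7 and 8, was split over both viruses, 1 culture with an adenovirus coding for green fluorescent protein (Ad-GFP, the control) and 1 with an adenovirus coding for Cre recombinase (Ad-Cre), at a multiplicity of infection of 100 with a wash after 24 hours. According to the design text, Cre turns on mutant IDH in these cells, and the series title names the change as the R132H form of IDH1. Every group thus consisted of 3 arrays, 1 per line. All lines were transduced, all cells were kept in a commercial neural stem cell medium, 0 arrays carried Cre without the mutant allele, and neither the promoter of the allele nor the mouse strain is given in the sources used here, so Cre itself and mutant IDH1 cannot be told apart as sources of a difference.

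Potassium channels let potassium ions leave or enter a cell down their electrochemical gradient and thereby set the resting membrane potential, end action potentials and buffer potassium around neurons. Voltage-gated channels are built from Kcna, Kcnb, Kcnc, Kcnd, Kcnh and Kcnq pore subunits, inward rectifiers from Kcnj subunits, leak channels from Kcnk subunits with a tandem pore, and calcium- or sodium-activated channels from Kcnm, Kcnn and Kcnt subunits, while Kcnab, Kcne, Kcnip and Kcnmb genes make accessory subunits. In brain development the inward rectifiers and leak channels hold glia and progenitors at a negative potential, whereas A-type and M-type voltage-gated channels are best known for tuning the firing of neurons.

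Every value below is a log2 signal or a difference of log2 signals (Ad-Cre minus Ad-GFP), summarised over the probe sets of a gene. Signals of different genes cannot be set against each other, and precision is limited by having 3 arrays a group. The 6 arrays had median signals of 8.38 to 8.43. The Ad-Cre array of line 2 stood apart: over the 90 genes its r with each other array was 0.906 to 0.921, against 0.951 to 0.993 among the remaining 5 (correlations across genes, which are not independent replicates). Values without line 2 are therefore given beside the results they alter. One label field also ran against the titles: the description marks of line 8 ran opposite to those of lines 2 and 7. Titles and transduction labels were followed here, and the alternatives include swapped labels for line 8. As titled, line 8 differences over all genes correlated with those of lines 2 and 7 at r = 0.40 and 0.56. Swapped labels would reverse both signs, and which field is right was not tested. With the line 8 labels swapped, 1 Kcn gene was higher and 0 were lower at an unadjusted p under 0.05, in place of the 7 and 8 given next.

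Across the family the genes with the largest lower signals under Ad-Cre were Kcnk2 and Kcnj10, a leak channel and a glial inward rectifier, at differences of -1.35 and -1.24. The largest higher signals were those of Kcnq3, Kcnj2, Kcnq5 and Kcnc1, at 0.92, 0.87, 0.82 and 0.77. With limma, the cell line as a block and Benjamini-Hochberg adjustment over all 23152 genes, 0 Kcn genes and 0 genes in all (0%) passed an adjusted p of 0.05. Kcnk2 came closest among Kcn genes, at an adjusted p of 0.0939. At an unadjusted p under 0.05, 7 of 90 Kcn genes were higher (7.78%, against 7.04% of all genes) and 8 were lower (8.89%, against 5.58%). All 3 lines gave 1 direction for 14 higher genes (15.6%, against 22.1%) and 13 lower genes (14.4%, against 16.2%). Ad-Cre and Ad-GFP arrays did not overlap for 7 higher genes (7.78%, against 12%) and 11 lower genes (12.2%, against 8.89%). These shares lay near those of the whole array. The median difference was 0.058 over Kcn genes and 0.025 over all genes, and by family it was 0.050 for Kcna to Kcnd, 0.096 for Kcnj, 0.039 for Kcnk, 0.052 for Kcnm and Kcnn and 0.064 for the others. Without line 2, 16 Kcn genes were higher and 11 lower at an unadjusted p under 0.05, against 9.5% and 7.99% of all genes. In that fit, 5 Kcn genes passed at an adjusted p under 0.05 as higher and 3 as lower, against 2.66% and 2.57% of all genes. The 5 were Kcnma1, Kcnq5, Kcnc1, Kcnc4 and Kcnq3, and the 3 were Kcnk2, Kcnj10 and Kcna6. With line 7 or line 8 left out instead, 0 genes in all passed an adjusted p of 0.05.

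**Figure D1:**
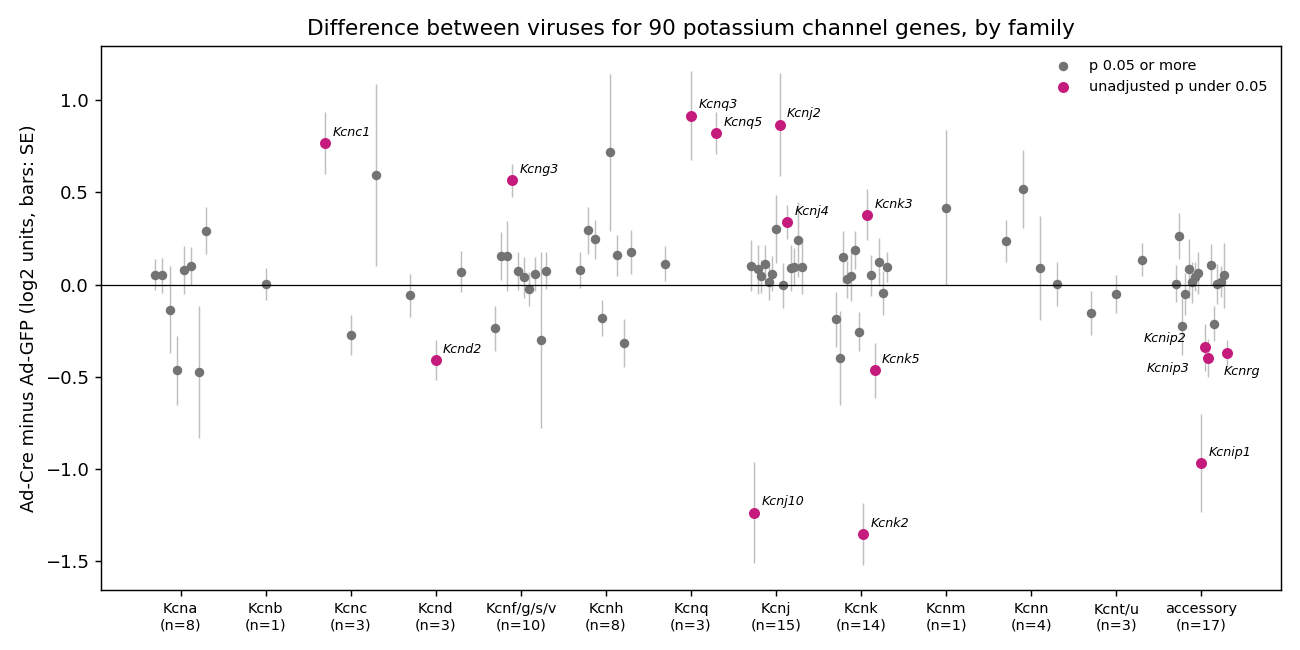
Ad-Cre minus Ad-GFP difference in log2 units for each of the 90 genes, grouped by family on the horizontal axis, with bars for the limma standard error and coloured points for the 15 genes with an unadjusted p under 0.05. Kcnk2 and Kcnj10 lie lowest at -1.35 and -1.24, and Kcnq3, Kcnj2, Kcnq5 and Kcnc1 highest, between 0.77 and 0.92.

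RefSeq promoters of the GRCm38.p6 build matched 69 of the 90 genes by symbol (94 promoters, since some genes have several starts). Shown are the stretches from 250 bases before to 50 bases after the start for 4 genes, each with a single listed start. A pair of them were lower (Kcnd2, Kcnj10) and a pair were higher (Kcnc1, Kcnj2). They are examples, so that a reader can see the sequence in front of some members. Capitals mark each GGGCGG, the core of a GC box, searched on both strands, so that its reverse complement CCGCCC is marked too.
Kcnd2, lower, chr6:21215096-21215395, + strand: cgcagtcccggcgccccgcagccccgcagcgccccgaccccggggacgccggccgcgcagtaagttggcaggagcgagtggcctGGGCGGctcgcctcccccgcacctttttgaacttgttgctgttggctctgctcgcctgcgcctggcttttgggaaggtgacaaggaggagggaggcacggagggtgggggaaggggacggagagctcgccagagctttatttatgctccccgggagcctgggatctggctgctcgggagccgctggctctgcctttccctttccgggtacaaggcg
Kcnj10, lower, chr1:172340960-172341259, + strand: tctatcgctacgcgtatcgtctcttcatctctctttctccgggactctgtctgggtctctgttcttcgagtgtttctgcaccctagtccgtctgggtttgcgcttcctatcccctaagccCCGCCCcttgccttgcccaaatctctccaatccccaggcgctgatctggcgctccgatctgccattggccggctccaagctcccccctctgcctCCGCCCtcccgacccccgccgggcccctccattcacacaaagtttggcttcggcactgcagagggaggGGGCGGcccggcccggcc
Kcnc1, higher, chr7:46396218-46396517, + strand: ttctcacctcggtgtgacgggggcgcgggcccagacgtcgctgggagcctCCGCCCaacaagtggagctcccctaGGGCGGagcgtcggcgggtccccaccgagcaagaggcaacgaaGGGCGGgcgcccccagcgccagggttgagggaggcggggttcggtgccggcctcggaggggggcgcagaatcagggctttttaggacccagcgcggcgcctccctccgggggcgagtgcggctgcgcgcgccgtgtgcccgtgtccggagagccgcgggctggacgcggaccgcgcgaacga
Kcnj2, higher, chr11:111065914-111066213, + strand: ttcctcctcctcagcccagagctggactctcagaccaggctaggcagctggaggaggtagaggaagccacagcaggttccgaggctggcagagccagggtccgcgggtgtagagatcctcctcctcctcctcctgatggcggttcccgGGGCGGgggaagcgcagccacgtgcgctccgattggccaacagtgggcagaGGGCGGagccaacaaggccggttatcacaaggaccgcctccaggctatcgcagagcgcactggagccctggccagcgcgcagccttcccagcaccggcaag
The motif occurred 1 time in the Kcnd2 stretch, 3 times in that of Kcnj10, 3 times in that of Kcnc1 and 2 times in that of Kcnj2, so both directions of difference held it. It occurred in 45 of the 94 Kcn promoters (47.9%) and in 35.7% of all 32851 promoters. The letters TATAAA occurred in 5.32% of Kcn promoters and 13.6% of all, and TGANTCA, the core of an AP-1 motif, in 4.26% and 7.81%, both searched on either strand, and neither occurred in these 4 stretches. By their letters, no pair of these motifs can share bases. A match in such a window is a description of letters only.

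Among genes of Kcnd channels, the pore subunit Kcnd2 and the accessory subunits Kcnip1, Kcnip2 and Kcnip3 were lower with Ad-Cre in all 3 lines. These channels carry an A-type current and open and close quickly below the firing threshold. Their pores come from Kcnd genes, the calcium-binding KChIP proteins made by Kcnip genes bring the pores to the surface, and the peptidase-like proteins Dpp6 and Dpp10 speed their gating. The Kcnd2 signal was 12.95, 12.65 and 12.52 with Ad-GFP and 12.51, 12.50 and 11.89 with Ad-Cre in lines 2, 7 and 8. The highest Ad-Cre array thus lay just below the lowest Ad-GFP array. The difference was -0.41 ± 0.11 (moderated SE of limma, n = 3 lines, adjusted p = 0.251, unadjusted p = 0.0129). All 9 Kcnd2 probe sets were lower in every line, between -0.54 and -0.28. Without line 2 the difference was -0.39 and without line 8 it was -0.30 (unadjusted p = 0.0758). With the line 8 labels exchanged it was 0.012, and with the line left out of the model its unadjusted p was 0.0756. The other Kcnd genes had intervals that span 0: Kcnd3 differed by 0.071 ± 0.11 (95% interval -0.22 to 0.36) and Kcnd1 by -0.058 ± 0.12 (-0.36 to 0.24), and both changed sign between lines.

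Kcnip1 had the largest difference of the accessory subunits. Its signal was 8.37, 8.89 and 8.52 with Ad-GFP and 6.66, 8.10 and 8.13 with Ad-Cre in lines 2, 7 and 8, and the groups did not overlap. The difference was -0.97 ± 0.27 (SE; adjusted p = 0.271), of which line 2 gave -1.71, and without line 2 it was -0.59 (adjusted p = 0.0533). Kcnip3, also known as the transcriptional repressor DREAM, was at 12.14, 12.05 and 11.91 with Ad-GFP and at 11.53, 11.66 and 11.72 with Ad-Cre. That is a narrow gap between the groups, and the difference of -0.40 ± 0.10 (adjusted p = 0.249) became -0.29 without line 2, -0.40 without line 7 (unadjusted p = 0.0597) and -0.23 with the mean of probe sets (unadjusted p = 0.0535). Kcnip2 was at 6.70, 6.95 and 6.55 with Ad-GFP and at 6.37, 6.33 and 6.48 with Ad-Cre, a difference of -0.34 ± 0.13 (adjusted p = 0.388). Its size depended on the summary: it was -0.55 with the mean of probe sets, -0.81 for the brightest probe set, -0.70 with dim probe sets left out and -0.20 without line 7 (unadjusted p = 0.204). Without line 2 its unadjusted p was 0.0621. The other member, Kcnip4, had a mean signal under the lower quartile of gene signals and differed by 0.11 ± 0.11. Of the 55 Kcnip probe sets, 21 were lower and 1 was higher at an unadjusted p under 0.05, against 5.47% and 5.26% of all probe sets. Of the lower ones 9 read Kcnip1 and 7 read Kcnip3. Probe sets of 1 gene are not independent, so this count restates the gene values above.

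The gating partners, from a list of other genes of potassium handling and channel complexes, were lower too. Dpp6 was at 10.21, 9.34 and 9.15 with Ad-GFP and at 8.95, 8.92 and 8.58 with Ad-Cre, a difference of -0.75 ± 0.19 (adjusted p = 0.236; without line 2, -0.50 with adjusted p = 0.0445). Dpp10 was at 7.76, 7.84 and 6.78 with Ad-GFP and at 6.69, 7.16 and 6.32 with Ad-Cre, a difference of -0.74 ± 0.14 (adjusted p = 0.161; without line 2, -0.57 with adjusted p = 0.0488). In both genes each line went down, although the Dpp10 groups overlap because line 8 was low under either virus. Together with Kcnd2 and 3 Kcnip genes they make 6 lower genes at an unadjusted p under 0.05 among the 9 described, where 5.58% of all genes were lower. These 9 were put together from 2 gene families and 2 members of the partner list with their values known, so the count is a description only.

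**Figure D2:**
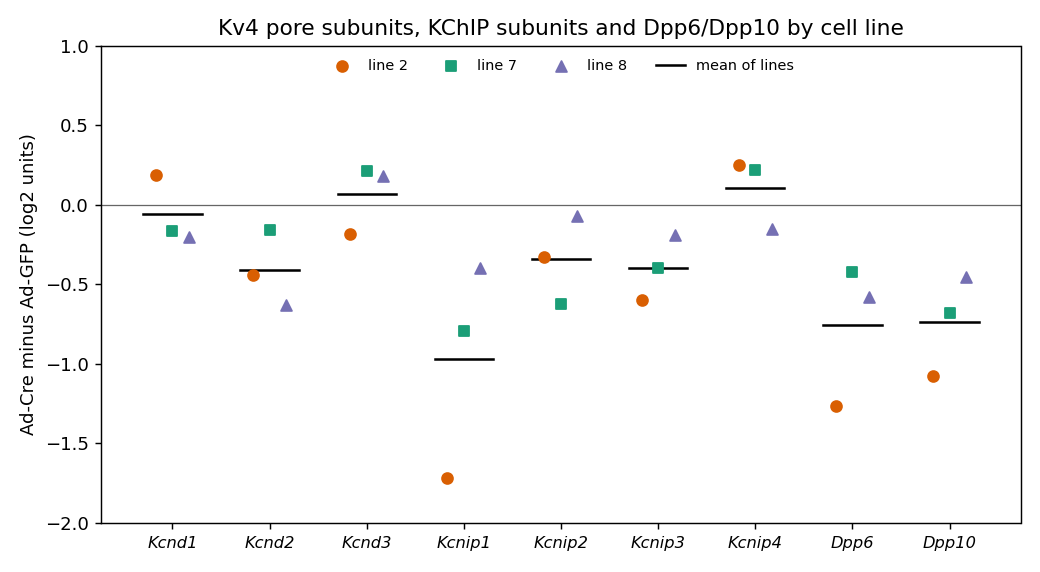
Ad-Cre minus Ad-GFP differences in log2 units for the Kcnd pore subunits, the Kcnip subunits and Dpp6 and Dpp10, with 1 point per cell line and a black line at the mean of the 3 lines. All 3 points lie below 0 for Kcnd2, Kcnip1, Kcnip2, Kcnip3, Dpp6 and Dpp10, with the line 2 point of Kcnip1 lowest at -1.71.

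Markers of neurons and of the oligodendrocyte lineage, cells in which these channels are well known, were read beside them, where 5.58% of all genes were lower and 7.04% higher at an unadjusted p under 0.05. Of 16 neuronal markers 3 were lower (18.8%) and 2 higher (12.5%), their median difference was -0.0036, and the log2 of their summed signal was 13.93 to 14.09 with Ad-GFP and 13.76 to 13.91 with Ad-Cre. The lower ones were Snap25, Dcx and Elavl3 (-2.45, -1.80 and -0.90), and the higher ones Rbfox3 and Nefl (0.39 and 0.35). Of 17 oligodendrocyte lineage markers 5 were lower (29.4%) and 1 higher (5.88%), their median difference was -0.094, and their summed level was 14.94 to 14.99 with Ad-GFP and 14.57 to 14.83 with Ad-Cre. The lower ones were Gpr17, Pdgfra, Ugt8a, Bcas1 and Cnp (-2.86 to -0.53), the higher one was Opalin (1.09), and Olig2 and Cspg4 were at -0.010 and 0.013. Markers of dividing cells were lower in all 3 lines for 9 of 9 genes, without overlap between the viruses. Of all genes 16.2% were lower in all 3 lines and 8.89% were lower without overlap. Their summed level was 15.12 to 15.17 on Ad-GFP arrays, 12.57 on the Ad-Cre array of line 2 and 14.81 to 14.84 on the other Ad-Cre arrays. Of these 9 genes 1, Ccnb2, had an unadjusted p under 0.05 (11.1%). Without line 2 there were 8, of which 4 had an adjusted p under 0.05, against 7.99% and 2.57% of all genes that were lower in that fit. The part of these lists in the Kcn differences was not tested, and in such bulk RNA fewer cells of a type and less RNA per cell cannot be told apart.

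Products of Kcnq genes carry the M-type current that holds neurons near rest, and Kcnq3 and Kcnq5 subunits can join in 1 channel. Of 3 measured Kcnq genes 2 were higher with Ad-Cre at an unadjusted p under 0.05 (66.7%, against 7.04% of all genes). Kcnq5 was at 8.58, 8.60 and 8.79 with Ad-GFP and at 9.61, 9.25 and 9.58 with Ad-Cre in lines 2, 7 and 8. Every Ad-Cre array was above every Ad-GFP array, by a similar step in each line (1.03, 0.65 and 0.79). The difference was 0.82 ± 0.12 (SE; adjusted p = 0.102), or 1.77-fold, and all 17 of its probe sets had a positive mean difference, 14 of them in every line. With the line as a random block Kcnq5 passed over all genes (adjusted p = 0.0395), and without line 2 it passed as well (0.72, adjusted p = 0.0125). Without line 7 and without line 8 it did not pass (0.91 and 0.84, adjusted p = 0.355 and 0.389). Kcnq3 was at 8.52, 8.71 and 8.52 with Ad-GFP and at 10.14, 9.24 and 9.12 with Ad-Cre. The groups did not overlap, and the line 2 array was the highest. The difference was 0.92 ± 0.24 (adjusted p = 0.256), with all 14 probe sets positive, and it was 0.56 without line 2 (adjusted p = 0.0273). Kcnq1, the cardiac and epithelial member, differed by 0.11 ± 0.095 (95% interval -0.13 to 0.36).

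Inward rectifiers went in opposite directions. Kcnj10, the glial channel that clears potassium around neurons and is expressed by astrocytes and oligodendrocytes, was at 11.91, 11.74 and 11.67 with Ad-GFP and at 9.93, 11.16 and 10.53 with Ad-Cre in lines 2, 7 and 8. All Ad-Cre arrays were below all Ad-GFP arrays. The difference was -1.24 ± 0.27 (SE; adjusted p = 0.198), or 2.35-fold lower, and without line 2 it was -0.86 (adjusted p = 0.0142). All 5 probe sets were lower on average, 4 of them in every line. Kcnj16, which pairs with Kcnj10 in glia, had differences of -0.15, 0.35 and 0.71 in lines 2, 7 and 8, with a mean of 0.30 ± 0.18 (adjusted p = 0.553), and without line 2 it was 0.53 (adjusted p = 0.0542). Of 15 astrocyte markers read beside Kcnj10, 5 were lower (33.3%, against 5.58% of all genes) and 1 higher (6.67%, against 7.04%) at an unadjusted p under 0.05, and 10 of the 15 had no single direction over the lines. The lower ones were Aldh1l1, Aqp4, Apoe, Slc6a11 and Gja1, at -1.66, -1.36, -1.31, -1.15 and -0.77, each lower in every line, and the higher one was S100b at 0.61. The summed level of the list was 16.07 to 16.21 with Ad-GFP and 15.59 to 16.04 with Ad-Cre. On the Ad-Cre array of line 2 Gfap, an astrocyte filament, was at 11.27 against 7.48 to 8.33 elsewhere, while Aldh1l1, Slc6a11, Acsbg1 and Apoe differed by -1.43, -1.28, -1.12 and -1.11 in that line. Their part in the Kcnj10 difference was not tested.

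Kcnj2, a strong inward rectifier that sets the resting potential of many excitable cells, was higher. Its signal was 7.03, 7.09 and 7.15 with Ad-GFP and 8.74, 7.48 and 7.67 with Ad-Cre. The Ad-GFP arrays lay close together and the Ad-Cre arrays all above them, most of all in line 2. The difference was 0.87 ± 0.28 (SE; adjusted p = 0.324) and was 0.45 without line 2 (adjusted p = 0.0853), and each of the 4 probe sets was higher in every line. Kcnj4, of the same strong rectifier group, was at 6.97, 7.02 and 6.84 with Ad-GFP and 7.32, 7.24 and 7.28 with Ad-Cre, a difference of 0.34 ± 0.091 (adjusted p = 0.262). It was 0.29 without line 8 (unadjusted p = 0.0817). Kcnj8, a pore of channels gated by ATP, differed by 0.24 ± 0.20 with line 7 against the other lines (0.67, -0.32 and 0.38). Of 15 Kcnj genes 2 were higher (13.3%, against 7.04% of all genes) and 1 lower (6.67%, against 5.58%) at an unadjusted p under 0.05. Their median difference was 0.096.

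Of the tandem-pore leak channels, Kcnk2 had the largest difference of all Kcn genes. Its product, TREK-1, is opened by stretch, heat and polyunsaturated lipids. The Kcnk2 signal was 8.84, 8.70 and 9.32 with Ad-GFP and 7.10, 7.73 and 7.98 with Ad-Cre in lines 2, 7 and 8. The groups were well apart, and each line went down (-1.74, -0.97 and -1.35). The difference was -1.35 ± 0.17 (SE; adjusted p = 0.0939), or 2.55-fold lower, and without line 2 it was -1.16 (adjusted p = 0.00554). Without line 7 and without line 8 it was -1.54 and -1.35 (adjusted p = 0.276 and 0.297). Kcnk10, a close relative of Kcnk2, differed by 0.10, -0.17 and -1.12 in lines 2, 7 and 8. A lower Kcnk10 signal was thus seen mainly in line 8, and the mean of -0.40 ± 0.25 (adjusted p = 0.570) did not pass.

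Kcnk5, an acid-sensitive leak channel, was at 7.53, 7.69 and 7.57 with Ad-GFP and 6.72, 7.54 and 7.12 with Ad-Cre, a difference of -0.46 ± 0.15 (adjusted p = 0.318). The groups overlapped slightly, through the Ad-Cre array of line 7, and the unadjusted p was 0.053 without line 2 and 0.0736 without line 8. Kcnk3, another acid-sensitive leak channel, was at 9.28, 9.39 and 8.75 with Ad-GFP and 9.56, 9.55 and 9.44 with Ad-Cre, a difference of 0.38 ± 0.14 (adjusted p = 0.377). That value exceeds each of its 3 probe sets, which differed by 0.17 to 0.27 with none higher in all 3 lines, and with the mean of probe sets it was 0.23 (unadjusted p = 0.194). With the line 8 labels exchanged it was -0.085. Without line 8, whose Ad-GFP array was lowest, it was 0.22 (unadjusted p = 0.256), and without line 7 the unadjusted p was 0.0537. Kcnk18, a calcineurin-regulated leak channel of sensory neurons, differed by -0.25 ± 0.11, and Kcnk16 by 0.19 ± 0.10, neither past an unadjusted p of 0.05. Of 14 Kcnk genes 1 was higher (7.14%, against 7.04% of all genes) and 2 were lower (14.3%, against 5.58%) at an unadjusted p under 0.05. Their median difference was 0.039.

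**Figure D3:**
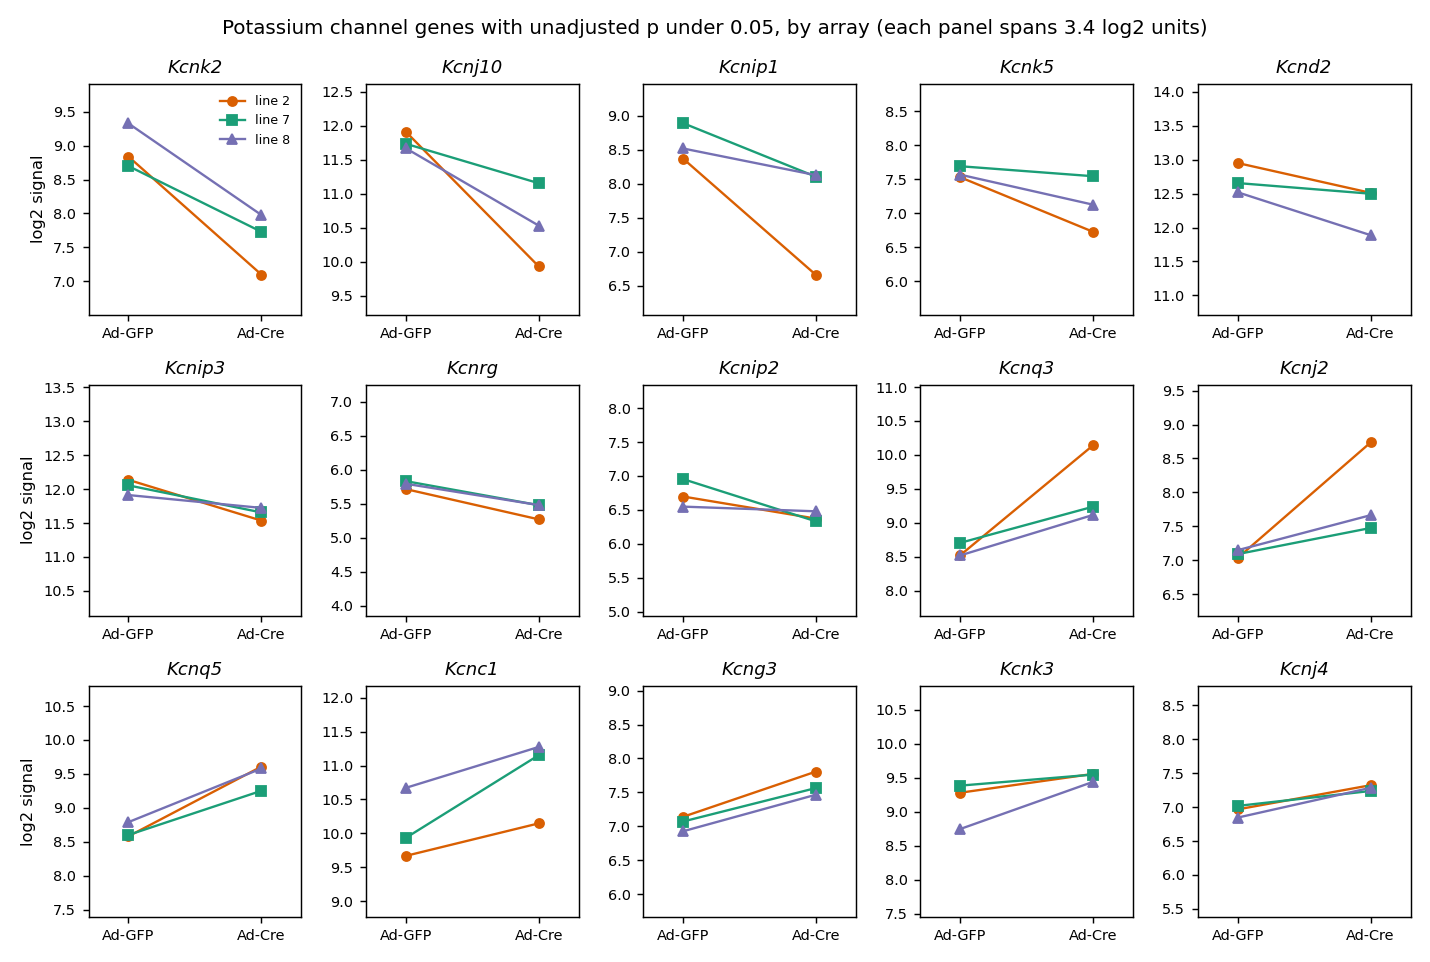
Log2 signal of the 15 genes with an unadjusted p under 0.05 on each array, with Ad-GFP left and Ad-Cre right in every panel and a coloured line for each cell line; all panels span the same number of log2 units. The line 2 culture moves furthest for Kcnk2, Kcnj10, Kcnip1, Kcnk5, Kcnq3 and Kcnj2, whereas Kcnc1 moves furthest in line 7 and Kcnd2 in line 8.

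Kcnc genes make channels of high threshold that let neurons fire fast. Kcnc1 was at 9.67, 9.93 and 10.67 with Ad-GFP and at 10.15, 11.15 and 11.27 with Ad-Cre in lines 2, 7 and 8. Each line went up, while the groups overlapped because the lines started from different levels. The difference was 0.77 ± 0.17 (SE; adjusted p = 0.198), 0.91 without line 2 (adjusted p = 0.0165), and its unadjusted p of 0.00654 became 0.0783 when the line was left out of the model. Kcnc4, of the same family, was at 9.44, 9.68 and 8.66 with Ad-GFP and 8.64, 10.47 and 10.46 with Ad-Cre. It was thus lower in line 2 (-0.80) and higher in lines 7 and 8 (0.78 and 1.80), with a mean of 0.59 ± 0.49 (adjusted p = 0.652) and 1.29 without line 2 (adjusted p = 0.0204). Kcnc2 was lower in all 3 lines, at -0.27 ± 0.11 (adjusted p = 0.406).

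Of the 8 Kcna genes, some of which make delayed rectifiers of axons, 0 had an unadjusted p under 0.05 (limma). At that threshold 7.04% of all genes were higher and 5.58% lower. Only 1 of the 8, Kcna7, was higher in every line (12.5%, against 22.1% of all genes), at 0.29 ± 0.13 (adjusted p = 0.442). Kcna3, a channel also known for control of proliferation in glia and lymphocytes, was at 9.17, 9.35 and 9.56 with Ad-GFP and 8.36, 9.38 and 8.94 with Ad-Cre. Line 7 stayed level, and the mean difference was -0.46 ± 0.19 (adjusted p = 0.408). Kcna6 was at 9.15, 8.96 and 9.20 with Ad-GFP and 9.72, 8.25 and 7.94 with Ad-Cre, so that it was higher in line 2 and lower in lines 7 and 8. Its mean was -0.47 ± 0.36 (adjusted p = 0.627), and without line 2 it was -0.99 (adjusted p = 0.0150). Kcna2 ran the other way, with -0.84 in line 2 and 0.21 and 0.22 in lines 7 and 8.

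Among the silent subunits Kcnf, Kcng, Kcns and Kcnv, which form no channel alone and modify Kcnb channels, Kcng3 was higher in a uniform way. Its signal was 7.14, 7.07 and 6.93 with Ad-GFP and 7.81, 7.57 and 7.47 with Ad-Cre, with no overlap. The difference was 0.57 ± 0.089 (SE; adjusted p = 0.119), 0.52 without line 2 (adjusted p = 0.0529) and 0.36 for the brightest probe set (unadjusted p = 0.0502). Kcnf1 differed by -0.24 ± 0.12 and Kcng1 by 0.16 ± 0.13, neither with a single direction over the lines. Kcnb2, the 1 pore partner of these subunits measured here, differed by 0.0036 ± 0.087 (95% interval -0.22 to 0.23). Of 10 silent subunit genes 1 was higher (10%, against 7.04% of all genes) and 0 were lower (0%, against 5.58%) at an unadjusted p under 0.05.

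The 8 Kcnh genes (ether-a-go-go type, with slow or inactivating voltage-gated currents) had none with an unadjusted p under 0.05, that is 0 higher and 0 lower (limma). Over all genes the shares were 7.04% higher and 5.58% lower. Kcnh7 was lower in all 3 lines, at -0.32 ± 0.13 (adjusted p = 0.422), and Kcnh3 was higher in all 3, at 0.25 ± 0.10 (adjusted p = 0.430). Kcnh2, the channel that repolarises heart muscle, differed by 0.012, 0.45 and 0.42 in lines 2, 7 and 8, and without line 2 it was 0.43 (adjusted p = 0.0616). Kcnh5, a pore subunit of the same group, was at 7.06, 6.97 and 7.07 with Ad-GFP and 9.07, 7.25 and 6.94 with Ad-Cre. Only the Ad-Cre array of line 2 was high, and the mean of 0.72 ± 0.43 (adjusted p = 0.544) was 0.075 without line 2.

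Of 9 Kcnm and Kcnn genes, accessory Kcnmb subunits included, 0 had an unadjusted p under 0.05 (limma), where 7.04% of all genes were higher and 5.58% lower. Kcnma1, the pore of the large-conductance channel that is abundant in gliomas, was at 8.87, 8.61 and 8.06 with Ad-GFP and at 8.01, 9.80 and 8.98 with Ad-Cre. It was lower in line 2 (-0.86) and higher in lines 7 and 8 (1.19 and 0.92). The mean was 0.42 ± 0.42 (adjusted p = 0.710), and without line 2 it was 1.06 (adjusted p = 0.00528), the smallest adjusted p of a Kcn gene in that fit. Kcnn2, a small-conductance channel of the afterhyperpolarisation, was higher in all 3 lines (1.10, 0.10 and 0.36; mean 0.52 ± 0.21, adjusted p = 0.416), and each of its 16 probe sets had a positive mean. Kcnn1 differed by 0.24 ± 0.11 and Kcnn3 by 0.92, -0.44 and -0.22 in lines 2, 7 and 8. The sodium-activated Kcnt1 differed by -0.15 ± 0.12 and the sperm channel Kcnu1, under the lower quartile of gene signals, by 0.14 ± 0.088.

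The remaining accessory subunits showed small differences. Kcnrg, named as a regulator of voltage-gated channels, was at 5.71, 5.83 and 5.79 with Ad-GFP and 5.27, 5.48 and 5.48 with Ad-Cre. These signals do not overlap between the viruses, and all lie under the lower quartile of gene signals (6.34). The difference was -0.37 ± 0.074 (SE; adjusted p = 0.170). Kcnab2, an oxidoreductase-like beta subunit of Kcna channels, differed by 0.26 ± 0.12 (0.38 without line 2, adjusted p = 0.0931), Kcnab3 by -0.23 ± 0.16, and Kcnmb1, a beta subunit of the Kcnma1 channel best known in smooth muscle, by -0.21 ± 0.096. Of 5 Kcne and 4 Kcnmb genes 0 had an unadjusted p under 0.05 (limma), where 7.04% of all genes were higher and 5.58% lower. In all, 10 of the 90 genes had a mean signal under the lower quartile, among them Kcnrg, Kcnmb1, Kcnip4 and Kcnu1, against 25% of all genes, and no gene was left out for a low signal.

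Probe sets of a gene did not always move together. In Kcnk2, 9 of 11 probe sets were lower in every line and the other 2 were higher in every line, at 0.49 and 0.89, while the brightest was at -2.20. Kcnip1 had 11 probe sets lower in all 3 lines, down to -2.24, and 3 higher in all 3, and Kcnip3 had 7 and 1. In contrast, the 9 probe sets of Kcnd2 were all lower and those of Kcnq3, Kcnq5 and Kcnc1 all had positive means. The sources used here do not say which exon a probe set reads, so these splits were not assigned to transcripts. Of the 803 Kcn probe sets, 63 were higher and 55 lower at an unadjusted p under 0.05, against 5.26% and 5.47% of all probe sets. At an adjusted p under 0.05 there were 0. Probe sets of 1 gene are not independent, so these counts are a description only.

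**Figure D4:**
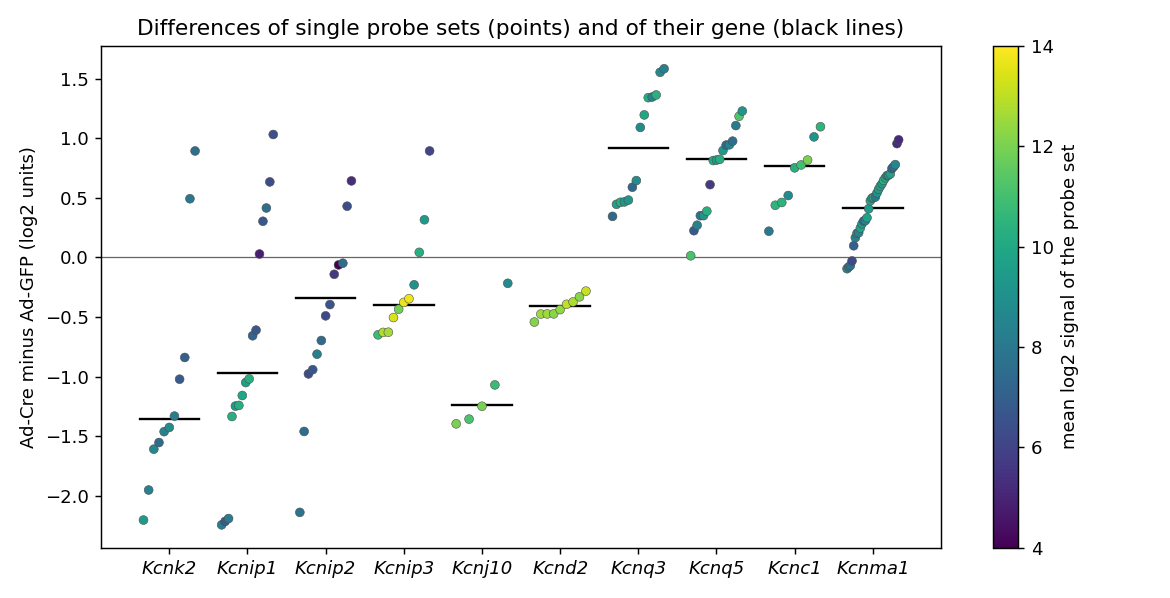
Mean Ad-Cre minus Ad-GFP difference in log2 units of each probe set (points, coloured by mean log2 signal) for 10 genes, with a black line at the value of the gene. Kcnk2 has 2 probe sets above 0 and 9 below, Kcnip1 has 5 and 11, and Kcnd2 has 9 of 9 below 0.

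The direction in line 2 was also set against that of the other lines. For 27 of 90 Kcn genes (30%, against 23.1% of all genes) lines 7 and 8 went one way and line 2 the other, 12 of them lower and 15 higher in line 2. Line 7 stood alone for 22 genes and line 8 for 14, for which shares over all genes were not counted. Over the 90 genes, differences of lines 7 and 8 correlated at r = 0.64, those of lines 2 and 7 at 0.26 and those of lines 2 and 8 at 0.24. Over all genes these values were 0.56, 0.37 and 0.40. They are a description across genes that share arrays. Differences of more than 1 log2 unit numbered 5 higher and 4 lower in line 2 (against 2.2% and 3.19% of all genes), 2 higher and 0 lower in line 7 (0.562% and 1.08%) and 1 higher and 4 lower in line 8 (0.445% and 0.644%). The median size of a difference was 0.26, 0.18 and 0.18 in lines 2, 7 and 8, against 0.20, 0.13 and 0.13 over all genes. The widest ranges over lines were those of Kcnc4, Kcnv1, Kcnh5, Kcnma1, Kcna6 and Kcnj10. Kcnv1, a silent subunit of neurons, was at 9.77, 9.76 and 8.62 with Ad-GFP and at 8.03, 9.94 and 9.29 with Ad-Cre, so it was far lower in line 2 alone, and its mean of -0.30 ± 0.48 turned to 0.42 without line 2. The median difference of the 9 markers of dividing cells was -2.55, -0.25 and -0.35 in lines 2, 7 and 8, and their part in these line differences was not tested.

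**Figure D5:**
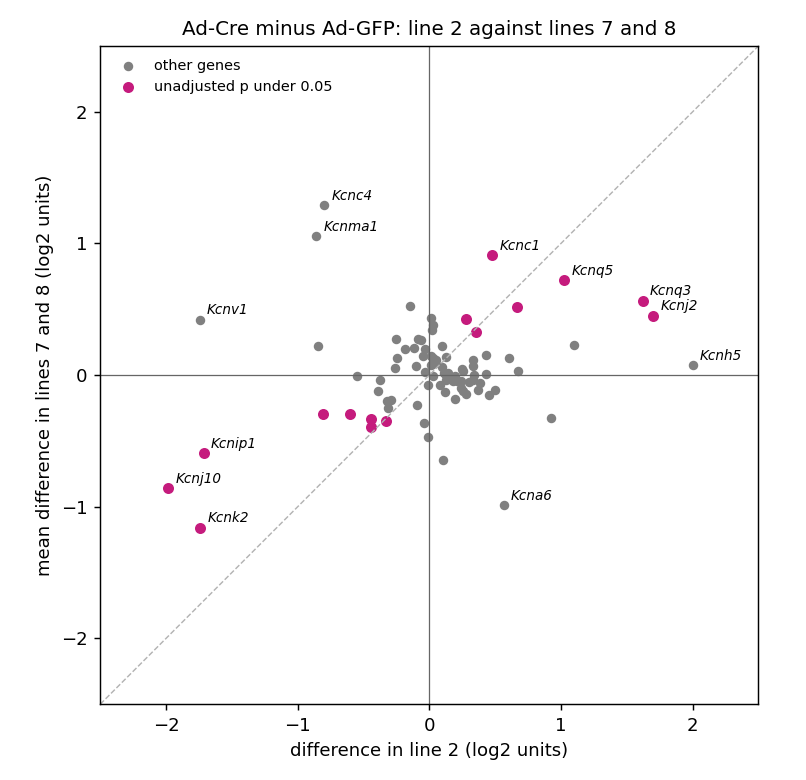
Ad-Cre minus Ad-GFP difference in line 2 (horizontal) against the mean difference of lines 7 and 8 (vertical), both in log2 units, for the 90 genes, with a dashed line where they are equal. Kcnma1, Kcnc4 and Kcnv1 lie in the upper left, lower in line 2 and higher in lines 7 and 8, Kcna6 in the lower right, and Kcnk2, Kcnj10 and Kcnip1 in the lower left.

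Levels under either virus were also compared between lines. In the same fit, a moderated F test of the line terms gave 0 Kcn genes with an adjusted p under 0.05 (0.00864% of all genes) and 4 with an unadjusted p under 0.05 (4.92% of all genes): Kcnc1, Kcnb2, Kcnd2 and Kcnh3. Kcnc1 was lowest in line 2 and highest in line 8 under both viruses, and Kcnd2 was lowest in line 8 under both.

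Other genes of potassium handling were read beside the channels, from a list of 52 of which 42 were measured. At an unadjusted p under 0.05, 5 were higher (11.9%, against 7.04% of all genes) and 4 lower (9.52%, against 5.58%), with a median difference of 0.098, and 0 passed over all genes. Atp1b1, a beta subunit of the sodium pump that loads cells with potassium, was at 10.92, 11.34 and 11.47 with Ad-GFP and 12.32, 11.91 and 12.31 with Ad-Cre. Its groups did not overlap, and the difference was 0.94 ± 0.17 (adjusted p = 0.149; without line 2, 0.71 with adjusted p = 0.00628). Slc12a2, the cotransporter that brings sodium, potassium and chloride into cells, was higher by 0.48 ± 0.079 (adjusted p = 0.128), with a like step in each line (0.45, 0.44 and 0.54). Tmem38a, a potassium channel of the endoplasmic reticulum, was higher by 0.55 ± 0.11, Slc12a4, a potassium and chloride exporter, by 0.27 ± 0.098, and Hcn4, a hyperpolarisation-activated channel, by 0.25 ± 0.084. The lower genes besides Dpp6 and Dpp10 were Fxyd6, a regulator of the sodium pump, at -0.80 ± 0.18 (0.025 with the line 8 labels exchanged), and Aqp4, the glial water channel that lies next to Kcnj10 in astrocyte endfeet and also stood on the astrocyte list, at -1.36 ± 0.37. Aqp4 differed by -0.28, -2.18 and -1.63 in lines 2, 7 and 8, beside -1.98, -0.58 and -1.14 for Kcnj10.

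The labelled cell type was checked against its markers, and Nes and Sox2, of neural stem cells, were at 11.58 to 12.35 and 12.97 to 13.53 over the 6 arrays. Of 9 markers of neural stem cells 4 were lower (44.4%, against 5.58% of all genes) and 1 higher (11.1%, against 7.04%) at an unadjusted p under 0.05. The lower ones were Prom1, Msi1, Pax6 and Fabp7, at -1.31, -0.48, -0.28 and -0.12, and the higher one was Hes1 at 0.42. The summed level of the list was 15.96 to 16.01 under Ad-GFP and 15.87 to 16.09 under Ad-Cre. The other lists stood for cells that such a culture could hold. For 10 microglia and macrophage genes the log2 summed level was 10.77 to 10.83 with Ad-GFP and 10.95 to 11.01 with Ad-Cre, for 8 endothelial genes 9.69 to 9.74 and 9.78 to 9.93, for 6 muscle genes 9.80 to 9.82 and 9.88 to 9.98, for 7 ependymal and choroid plexus genes 10.29 to 10.49 and 10.51 to 11.09, and for 12 fibroblast, pericyte and smooth muscle genes 11.57 to 12.63 and 11.36 to 11.53. Of these 12 genes 2 were lower at an unadjusted p under 0.05 (16.7%, against 5.58% of all genes), Acta2 at -2.35 and Pdgfrb at -0.61. Another 2 were higher (16.7%, against 7.04%), Foxc1 at 0.83 and Col1a1 at 0.33. The median difference of the 12 was 0.079, with 5 higher (41.7%, against 22.1% of all genes) and 2 lower (16.7%, against 16.2%) in all 3 lines. Acta2, a smooth muscle actin, was at 10.12 to 12.08 with Ad-GFP and 8.25 to 9.25 with Ad-Cre. At an unadjusted p under 0.05, 1 microglia and macrophage gene (10%), 1 endothelial gene (12.5%), 2 ependymal and choroid plexus genes (28.6%) and 0 muscle genes (0%) were higher (limma). Over all genes 7.04% were higher. In these 4 lists 0 genes were lower, against 5.58% of all genes.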

How the data were processed

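The 6 arrays (Affymetrix, 1 per culture) came as a deposited table of log2 values, 1 per probe set; per the submitters' processing notes the authors used RMA in Affymetrix Expression Console. Software versions, settings and genome build were not named there. Because RMA gives every array a like distribution, a shift of most genes at once would not show. Detection calls were not at hand, and a dim gene can differ by more than its signal shows.

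GEO's platform annotation gave 1 symbol to 233753 probe sets, several to 5106 and none to 30892. Those with 1 symbol were joined into genes by median polish (up to 20 rounds); a Kcn gene had 2 to 32 probe sets, with a median of 6. The fit was limma 3.58.1 (R 4.3.3) on all genes, virus plus line as a block, with a variance trend; tests are two-sided and adjusted by Benjamini-Hochberg, at a threshold of 0.05. It leaves 2 residual degrees of freedom a gene. The script was tested on simulated data. The series design, in which each line received both viruses, sets the block; deviations from the virus mean correlated at 0.226, 0.163 and 0.333 for arrays of 1 line and at -0.227 to 0.003 for arrays of different lines. Standard errors and p-values are limma's moderated ones, which draw the variance of each gene towards that of genes of like signal. The labels do not say whether lines are separate embryos, so p-values reach no further than these lines.

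Members and lists were chosen with earlier results of these data known. Of 164 list entries 151 were measured, 2 of them through a synonym in the RefSeq gene table of GRCm38.p6. Genes are named in 4 ways: at most 10 a direction by size, if their unadjusted p was under 0.05 and all lines went 1 way; at most 2 more a family by lowest p; at most 6 by lowest p between lines; and at most 6 by range over lines. Kcnip4, Kcna2, Kcnh2, Kcnn3, Kcnk10 and the marker genes given singly were added after their values were seen. Alternatives altered the block, trend, gene summary, normalization, dim filters, line 8 labels and lines used. Figures were drawn with matplotlib 3.10.9.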

Additional observations from a re-analysis of the deposited data

How the results depend on the processing

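The count of genes past an adjusted p of 0.05, which was 0, became 82 without the replicate block, 241 with a random replicate block and 73 with the mean of probe sets, and with single lines left out it ran from 0 (without line 7 or line 8) to 1211 (without line 2). Without the replicate block 0 Kcn genes passed, and with the random block 1 did (Kcnq5). Kcn genes higher at an unadjusted p under 0.05 numbered 7, 1 with the line 8 labels exchanged and 5 to 16 with a line left out; lower ones numbered 8, 0 with the exchange and 7 to 11 with a line left out. The median difference over Kcn genes, 0.058, was 0.017 to 0.070 with a line left out. The count of Kcn genes differing between lines was 0 in each alternative that gives this test.

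Signs of some differences turned, and not only of small ones. Fxyd6 and Kcnd2, at -0.80 and -0.41 in the reported fit, were among them, through the exchange of the line 8 labels alone. That exchange reverses the sign of the line 8 difference by construction, and it gave 17 of the turns. With the line 8 labels exchanged, Kcnc4 was at -0.60, Kcna6 at 0.37, Kcnk10 at 0.35, Kcnma1 at -0.19, Kcnj16 at -0.17, Kcnab3 at 0.14, Kcng1 at -0.14, Kcnk3 at -0.085, Kcnd1 at 0.078, Kcnu1 at -0.060, Kcnh7 at 0.056, Kcnb2 at -0.050, Kcnd3 at -0.049, Kcnf1 at 0.040, Fxyd6 at 0.025, Kcnd2 at 0.012 and Kcnj8 at -0.0082. By the brightest probe set, Kcnd1 was at 0.32, Kcnd3 at -0.11, Kcnb2 at -0.091, Kcnq1 at -0.072, Kcnh3 at -0.061, Kcnn3 at -0.058, Kcna3 at 0.041, Kcnc2 at 0.027 and Kcnab2 at -0.021. By the mean of probe sets, Kcnk18 was at 0.072, Kcnd1 at 0.033 and Kcnip4 at -0.018; with dim probe sets left out, Kcnb2 was at -0.11 and Kcnd1 at 0.013; with cyclic loess, Kcnb2 was at -0.012. With a line left out, Kcnv1 ran from -0.78 to 0.42, Kcna2 from -0.32 to 0.22, Kcnn3 from -0.33 to 0.35, Kcnd3 from -0.0017 to 0.20, Kcnd1 from -0.18 to 0.015, Kcnc4 from -0.0073 to 1.29 and Kcnb2 from -0.034 to 0.023. The cause of the turns under the other alternatives was not tested. Of 724 values of 56 named genes under 13 alternatives, 39 turned sign, and 16 passed the threshold that the reported fit did not reach, 15 of them without line 2. A fit on 4 arrays has fewer residual degrees of freedom, and low signals near background limit what the dim genes can show.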
